A study of Mus musculus with 8 samples.

Results

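The baseline transcriptome of alphaTC1.9 cells, a mouse line of glucagon-producing pancreatic alpha cells, was described from 4 control arrays of the 8 in the series. The members were taken from the sample titles, and the levels of 19494 genes on these 4 arrays were ranked by their mean. Per the labels, the genotype of these cells was control and no treatment was given. They were grown in DMEM with 16 mM glucose and 10% FBS, and total RNA was extracted with Trizol and hybridised to Clariom S arrays, which read each transcript cluster through a set of short probes. The other 4 arrays, of cells with insulin-degrading enzyme knocked down, were not used, so no second condition and no test enters the results. The labels do not state if the control cells had received a non-targeting RNA. The 4 samples are labelled as biological replicates, with no word on separate cultures, so the SD between arrays (n = 4 throughout) may be in part technical. The line is 1 clone from a tumour of mice in which the glucagon promoter drives the SV40 large T antigen, and the labels' tissue entry names mouse pancreas, not the line.

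Alpha cells release glucagon, which raises blood glucose by acting on the liver. The hormone is cut from a longer precursor, encoded by Gcg, by convertases inside dense-core granules and is released when calcium enters the cell. Amino acids stimulate alpha cells, and amino acid transporters are among the genes by which these cells are recognised, together with homeodomain factors that act on the Gcg promoter.

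Promoters are shown for Gcg, the gene with the highest signal, for Sct, the gut hormone gene with the highest signal, and for Sst, which encodes somatostatin and stood between the reference lines. Each line gives the 250 bases before the gene's start from RefSeq on GRCm38.p6, 5′ to 3′ on the gene's strand, with TAAT, the core letters read by many homeodomain proteins, in capitals on either strand (ATTA is the same core on the other strand).
Gcg: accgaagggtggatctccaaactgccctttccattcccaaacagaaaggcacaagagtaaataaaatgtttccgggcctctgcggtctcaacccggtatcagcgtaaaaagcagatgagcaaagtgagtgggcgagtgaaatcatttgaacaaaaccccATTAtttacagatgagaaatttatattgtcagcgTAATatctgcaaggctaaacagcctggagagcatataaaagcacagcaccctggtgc
Sct: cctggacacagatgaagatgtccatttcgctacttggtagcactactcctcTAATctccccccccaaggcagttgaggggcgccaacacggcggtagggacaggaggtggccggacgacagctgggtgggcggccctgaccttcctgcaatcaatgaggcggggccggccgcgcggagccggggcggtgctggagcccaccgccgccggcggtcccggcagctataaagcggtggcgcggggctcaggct
Sst: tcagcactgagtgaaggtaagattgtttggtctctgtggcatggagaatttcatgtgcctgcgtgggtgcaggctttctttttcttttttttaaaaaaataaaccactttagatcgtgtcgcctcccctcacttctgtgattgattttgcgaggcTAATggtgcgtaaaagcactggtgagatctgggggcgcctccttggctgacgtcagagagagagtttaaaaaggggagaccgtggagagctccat
These lie at chr2:62483654-62483903, chr7:141279134-141279383 and chr16:23890845-23891094, all on the minus strand. The Gcg window held 2 copies of TAAT and 44.8% G and C, whereas the Sct window held 1 copy and 68% G and C, and the Sst window 1 copy and 47.2% G and C. Of 32851 promoter windows of the same length, 54.9% held TAAT on either strand and 30.8% held at least 2 copies. Counted on both strands, TATAAA occurred 2 times in the Gcg window, 1 time in the Sct window and 0 times in the Sst window, and it was in 12.4% of all windows. TGACGTCA, the full cyclic AMP response element, occurred 1 time in the Sst window and in neither of the others, and in 1.55% of all windows. These matches describe letters only and do not show binding.

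Levels are deposited log2 values, on which 1 unit is a 2-fold difference in signal. A probe set's signal depends on its probes as well as on the amount of its transcript, so the order of genes is an order of array signals and not of molecules per cell. The array carries 5222 control rows taken to lie over introns and 1324 taken to lie over exons of constitutively used genes, which served as references. Per array, 7.55% to 9.52% of these exon rows were at or below the median intron row. The median intron row stood at 4.24 ± 0.03 and the median exon row at 7.20 ± 0.05, a contrast of 2.96 ± 0.04 with values of 2.90, 3.00, 2.95 and 2.99 on arrays 1 to 4. A gene was called above the line when it exceeded the 95th percentile of the intron rows on all 4 arrays, a line that stood at 6.95 ± 0.06, and near background when it was at or below the median intron row on all 4. Genes in neither class are called between the lines. Of 19494 genes, 4550 (23.3%) were above the line, 6842 (35.1%) were near background and 8102 (41.6%) lay between, and 3918 (20.1%) exceeded the median exon row on all 4 arrays. The line is strict, since 53.3% to 58.3% of the exon rows exceeded it per array, and the 1410 olfactory and vomeronasal receptor genes had a median of 2.38 and a 95th percentile of 3.69. A gene between the lines is therefore one whose signal these references did not separate from intron rows, and it is not called absent. Pairwise correlations over genes were 0.990 to 0.993.

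**Figure D1:**
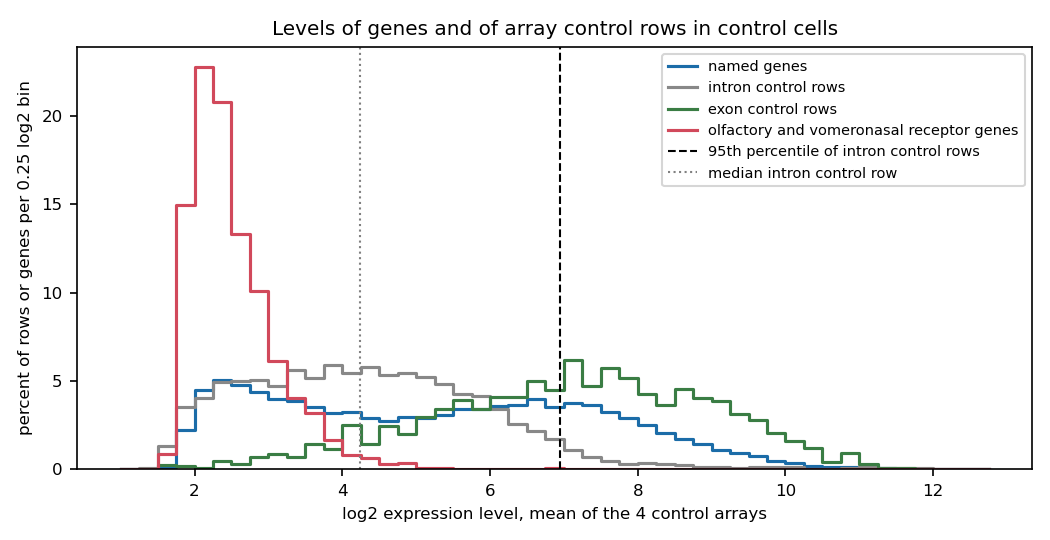
Distribution of log2 expression levels, mean of the 4 control arrays, as the percent of rows or genes in each bin, for 19494 named genes, 5222 intron control rows, 1324 exon control rows and 1410 olfactory and vomeronasal receptor genes. The receptor genes have their median at 2.38, the intron rows spread around 4.24 with a tail past the dashed line at 6.95, and the exon rows centre near 7.20.

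Gcg had the highest signal of all genes. It read 12.16, 12.06, 11.99 and 12.03 on arrays 1 to 4, a mean of 12.06 ± 0.07, which was 5.11 above the line. Its next neighbour was Rmrp, the RNA of a mitochondrial and nucleolar RNA-processing enzyme, at 11.87 ± 0.07, and Gcg stood above it on all 4 arrays by 0.19 ± 0.12. This was the only neighbour pair of the 14 among the first 15 genes whose order was the same on every array. Behind these came Gapdh (11.74 ± 0.10), a glycolytic enzyme, Actb (11.72 ± 0.07), which encodes beta-actin, and Syp (11.65 ± 0.07), which encodes synaptophysin of secretory vesicles. The histone genes H2ac22 (11.61 ± 0.15), H2ac13 (11.58 ± 0.13), H2ac11 (11.39 ± 0.14) and H2ac24 (11.38 ± 0.11) were also among the first 15. Histone genes made up 15 of the first 60, at 10.84 to 11.61, but they are near-identical copies whose probes can read each other's transcripts, and H3c14 and H3c15 had equal values on all 4 arrays, so single histone levels are uncertain. The remaining genes of the first 15 were Eef1a1 (11.48 ± 0.08), a translation elongation factor, Calr (11.46 ± 0.11), a chaperone of the endoplasmic reticulum, Bsg (11.40 ± 0.08), a partner of lactate transporters, the tubulins Tubb5 (11.37 ± 0.06) and Tuba1b (11.31 ± 0.07), and Got2 (11.30 ± 0.04), the mitochondrial aspartate aminotransferase.

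The 4 alpha cell markers taken as the starting list were all above the line. Beside Gcg, Slc38a5, a transporter of glutamine and other neutral amino acids, read 11.09, 11.24, 11.07 and 10.98 (11.10 ± 0.11, rank 36). Slc7a2, a transporter of arginine and other cationic amino acids, read 10.45, 10.32, 10.61 and 10.34 (10.43 ± 0.13, rank 101). Pou3f4, a POU-homeodomain factor, read 9.31, 9.20, 9.39 and 9.43 (9.33 ± 0.10, rank 545). No array put any of the 4 below 9.20. The wider alpha cell list was mixed. With these 4 included, 10 of its 22 measured genes (45.5%, beside 23.3% of all genes) were above the line. Another 8 were between and 4 (18.2%, beside 35.1%) near background. Its 16 alpha-enriched transcripts, which do not hold the starting markers, had 5 (31.25%) above the line and 4 (25%) near background. Those shares were closer to the shares of all genes. High members were Etv1 (10.42 ± 0.09), an ETS factor, Slc38a4 (10.35 ± 0.12), another amino acid transporter, Peg3 (10.04 ± 0.11), an imprinted zinc finger gene, Rgs4 (9.53 ± 0.12), a brake on G protein signaling, and Wnk3 (8.53 ± 0.05), a kinase that controls chloride transport. Ttr, which encodes the transthyretin that alpha cells of intact islets also carry, was lower, at 5.98, 6.37, 5.47 and 5.85 (5.92 ± 0.37). Loxl4 (5.29 ± 0.18) and Tm4sf4 (5.02 ± 0.15) lay between the lines as well. The proteases Dpp4 (2.57 ± 0.26), which inactivates incretins, and Fap (2.24 ± 0.35) were near background. The hormone, the transporters and the POU factor of the starting list were high, and 12 of the 22 genes were not separated from the intron rows. The lists were chosen with earlier results of these data known, so the high levels of the starting markers do not test the label.

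Hormone genes other than Gcg were mostly low. Of 91 measured hormone and neuropeptide genes, 4 (4.40%, beside 23.3% of all genes) were above the line, 41 were between and 46 (50.5%, beside 35.1%) near background, with a median of 3.96 beside 5.25 over all 19494 genes. Those above were Gcg, Sct, Npff and Cort. Sct, which encodes the gut hormone secretin, read 8.63, 8.90, 8.73 and 8.91 (8.79 ± 0.14). Npff, which encodes a pain-modulating neuropeptide, read 8.29, 8.35, 8.34 and 8.48 (8.37 ± 0.08). Cort, which encodes cortistatin, a peptide that binds somatostatin receptors, read 7.71, 7.33, 7.68 and 7.35 (7.52 ± 0.21). All 3 were above the line on every array, and Cort lay nearest to it.

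None of the 6 other islet hormone genes measured was above the line. Sst read 5.65, 5.64, 5.66 and 5.0 (5.49 ± 0.33), so array 4 stood apart from the other 3. Ins2, an insulin gene, read 5.21, 4.23, 4.73 and 4.28 (4.61 ± 0.46), and Ghrl, the ghrelin gene, read 4.87, 3.45, 4.45 and 4.85 (4.40 ± 0.67). Ppy, which encodes pancreatic polypeptide, read 4.36, 4.05, 4.56 and 4.30 (4.32 ± 0.21). Ins2, Ghrl and Ppy overlapped one another across arrays and lay close to the median intron row. Ucn3 (3.76 ± 0.17), a beta cell peptide, and Iapp (3.68 ± 0.47), which is co-secreted with insulin, were near background. Among 14 gut and enteroendocrine genes only Sct was above the line and 7 were near background. Cck, which encodes cholecystokinin, stood at 6.20 ± 0.29, Gip at 5.17 ± 0.15 and Pyy, which encodes peptide YY, at 4.62 ± 0.28, while Vip (2.37 ± 0.29) and Nmu (2.22 ± 0.20) were the lowest. The 44 neuropeptide genes included 2 above the line and 22 near background. Below Npff and Cort came Nxph1 (6.54 ± 0.07), which encodes a neurexin-binding glycoprotein, Cartpt (6.33 ± 0.21), the CART peptide gene, and Ucn (5.64 ± 0.36), which encodes urocortin, and at the bottom stood Npvf (2.49 ± 0.07) and Edn1 (2.43 ± 0.12). Of 26 pituitary, placental and metabolic hormone genes, 0 were above the line and 15 near background, headed by Inhbb (6.34 ± 0.17), which encodes an activin subunit, Igf2 (5.87 ± 0.27), Hamp (5.71 ± 0.19), which encodes hepcidin, and Stc1 (5.39 ± 0.13), and ended by Adipoq (2.18 ± 0.24) and Pth (2.12 ± 0.13).

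**Figure D2:**
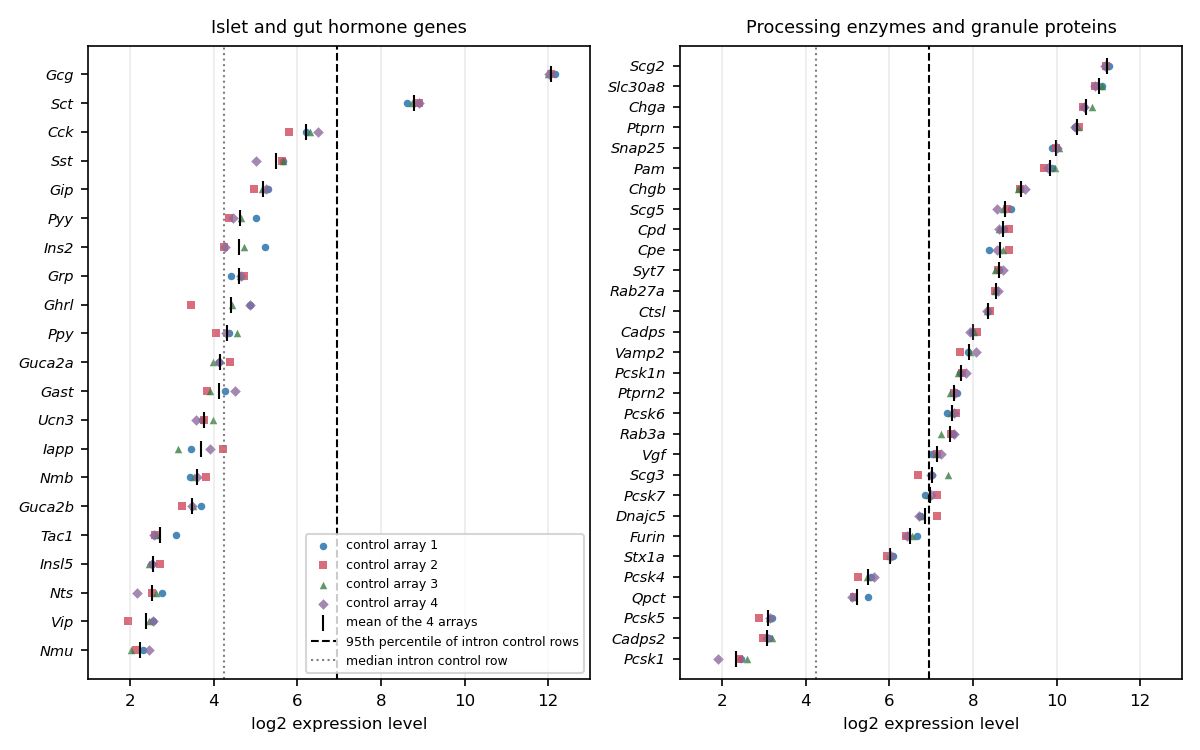
Log2 expression levels of islet and gut hormone genes (left) and of processing enzymes and granule proteins (right) on control arrays 1 to 4 (symbols), with the mean of the 4 arrays (vertical bar), the 95th percentile of intron rows (dashed, 6.95) and the median intron row (dotted, 4.24). Gcg at 12.06 and Sct at 8.79 stand to the right of the dashed line, and the other 19 hormone genes to its left.

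The machinery that makes and stores peptide hormones was high, unlike most hormone genes. Of 30 granule and processing genes, 20 (66.7%, beside 23.3% of all genes) were above the line and 3 near background, with a median of 7.81. Among granule proteins 13 of 17 were above the line. Scg2, which encodes a granin, read 11.26, 11.19, 11.19 and 11.16 (11.20 ± 0.04, rank 27). Slc30a8, the transporter that loads zinc into granules, read 11.09, 10.93, 11.09 and 10.92 (11.01 ± 0.10, rank 42). Chga (10.70 ± 0.10), which encodes chromogranin A, Ptprn (10.48 ± 0.05), a phosphatase-like protein of the granule membrane, Snap25 (9.99 ± 0.07), a SNARE of the release machinery, and Chgb (9.14 ± 0.07) followed. Vgf (7.13 ± 0.09) cleared the line narrowly, and Scg3, at 7.01, 6.68, 7.40 and 6.99 (7.02 ± 0.30), straddled it. Stx1a (6.02 ± 0.06), another SNARE, lay between the lines and Cadps2 (3.08 ± 0.09), a priming factor, was near background.

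Among 13 convertases and processing enzymes, 7 (53.8%, beside 23.3% of all genes) were above the line. The highest was Pam, which amidates peptide ends, at 9.88, 9.71, 9.95 and 9.79 (9.83 ± 0.11). Scg5 (8.75 ± 0.15), the chaperone of the convertase PC2, Cpd (8.71 ± 0.12) and Cpe (8.63 ± 0.20), carboxypeptidases that trim basic residues, and Pcsk1n (7.72 ± 0.08), an inhibitor of the convertase PC1/3, were above it too. Pcsk1, which encodes PC1/3, the convertase that yields GLP-1 from proglucagon, read 2.45, 2.40, 2.58 and 1.90 (2.33 ± 0.30). All 4 arrays placed it near background and it was the lowest of the 30 genes. Furin (6.50 ± 0.13) was between the lines and Pcsk5 (3.08 ± 0.14) near background. Pcsk2, which encodes PC2, was not analysed here.

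Among transcription factor genes, pan-endocrine factors had a median of 5.99 and factors of liver, muscle, blood and gonad one of 4.20. Of 90 measured, 17 (18.9%) were above the line, 42 between and 31 (34.4%) near background, shares near those of all genes (23.3% and 35.1%), with a median of 4.72. Among the alpha cell factors, Irx2 read 8.82, 8.81, 8.59 and 8.69 (8.72 ± 0.11), while its Iroquois relative Irx1 read 6.50, 6.48, 6.36 and 6.48 (6.46 ± 0.06). Irx2 exceeded the line on every array and Irx1 on none. Of 35 pan-endocrine factors, 11 (31.4%, beside 23.3% of all genes) were above the line. Etv1 read 10.43, 10.32, 10.54 and 10.40 and St18, a zinc finger factor, 10.45, 10.21, 10.58 and 10.42 (both means 10.42, SD 0.09 and 0.15), so the pair could not be ordered. Isl1, a LIM-homeodomain factor of all islet endocrine cells, read 9.72, 9.68, 9.64 and 9.69 (9.68 ± 0.03), below St18 on all 4 arrays by 0.73 ± 0.17. Prox1 (8.52 ± 0.06), Pax6 (8.41 ± 0.06), a paired-domain activator of Gcg, and Foxa2 (7.99 ± 0.12), a forkhead factor of endoderm, came next. Nkx2-2, at 6.95, 7.25, 7.29 and 7.34 (7.21 ± 0.18), missed the line on array 1 alone. Insm1 (4.99 ± 0.13) lay between the lines, and Rfx6 (3.29 ± 0.12), Rxrg (2.99 ± 0.25) and Hnf4g (2.27 ± 0.08) were near background.

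Beta and delta cell factors were above the line in 2 of 11 cases (18.2%, beside 23.3% of all genes). These were Mlx (8.43 ± 0.03), a broadly used partner of the glucose-responsive factor ChREBP, and Esrrg (8.21 ± 0.05), a nuclear receptor of oxidative metabolism. Nkx6-1, a homeodomain factor of beta cells, read 6.58, 6.77, 6.76 and 7.04 (6.79 ± 0.19), just under the line on average. Pdx1 (4.19 ± 0.18), Pax4 (4.13 ± 0.35) and Nkx6-3 (4.50 ± 0.33) were close to the median intron row, and Mlxipl (3.87 ± 0.19), which encodes ChREBP, Hhex (3.69 ± 0.32), a delta cell factor, and Mafa (3.36 ± 0.16), an insulin gene activator, were near background. Among 14 endocrine progenitor factors, Nr2f2 (7.69 ± 0.11), an orphan nuclear receptor, and Sox9, at 7.38, 7.47, 7.51 and 7.75 (7.53 ± 0.16), were above the line. Hes1 (5.42 ± 0.19), a Notch target, and Neurog3 (4.69 ± 0.28), which starts the endocrine program, lay between, and 8 were near background, down to Bhlha15 (2.87 ± 0.42) and Ptf1a (2.31 ± 0.20), both factors of acinar cells. None of 27 factors of liver, muscle, blood and gonad was above the line. The highest of these were Gata2 (6.53 ± 0.11) and Sall4 (5.66 ± 0.21) and the lowest Myf5 (2.53 ± 0.08), a muscle factor, and Spi1 (2.29 ± 0.19), a myeloid factor.

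**Figure D3:**
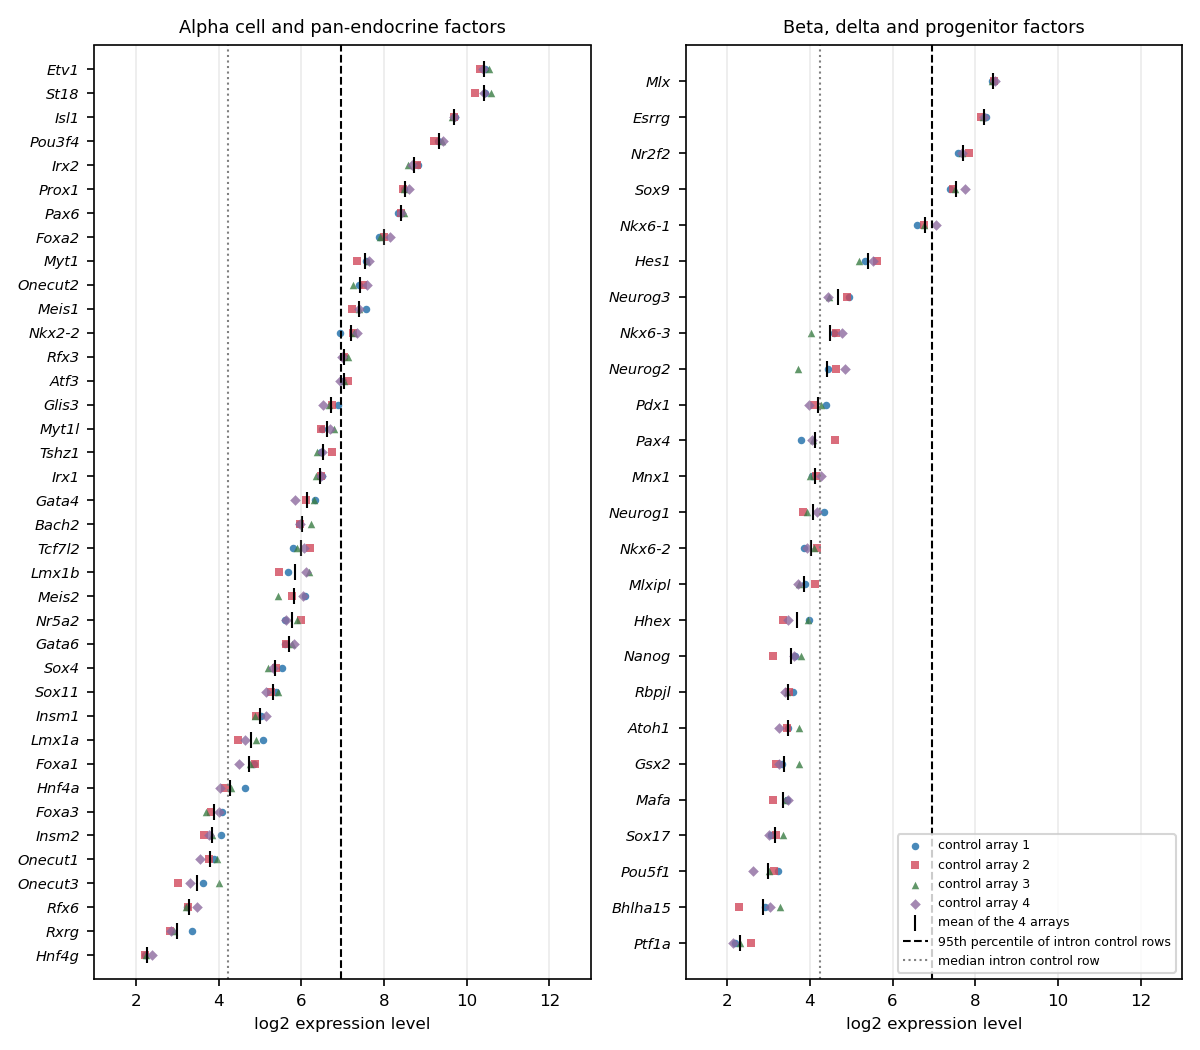
Log2 expression levels of alpha cell and pan-endocrine factors (left) and of beta, delta and progenitor factors (right) on control arrays 1 to 4 (symbols), with means (bars), the 95th percentile of intron rows (dashed, 6.95) and the median intron row (dotted, 4.24). Etv1 and St18 lead at 10.42, and Pdx1 at 4.19 and Mafa at 3.36 lie at or left of the dotted line.

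Of 186 receptor genes, 21 (11.3%, beside 23.3% of all genes) were above the line and 82 (44.1%, beside 35.1%) near background, with a median of 4.29. Among 42 genes listed as receptors for islet and gut peptides, 4 were above the line. This list also holds the receptor accessory genes Ramp1, Ramp2 and Ramp3, and Insrr, a relative of Insr. Oxtr, the oxytocin receptor, read 9.77, 9.92, 9.83 and 9.74 (9.81 ± 0.08, rank 260). Igf2r (9.50 ± 0.08), the mannose 6-phosphate receptor, was lower than Oxtr on all 4 arrays by 0.32 ± 0.09. Insr, the insulin receptor, read 8.82, 9.02, 8.76 and 8.84 (8.86 ± 0.11), whereas Igf1r, the related receptor for IGF1, read 5.38, 5.74, 5.50 and 5.32 (5.48 ± 0.18). Of the somatostatin receptors, Sstr3 (7.20 ± 0.13) was above the line and Sstr2, known as the main one of rodent alpha cells, read 6.54, 6.83, 6.64 and 6.38 (6.60 ± 0.19). Ghr (6.83 ± 0.08), the growth hormone receptor, lay just under the line. The incretin receptors Glp1r (5.26, 4.92, 4.82 and 4.67, 4.92 ± 0.25) and Gipr (4.39, 4.56, 4.60 and 4.81, 4.59 ± 0.18) were between the lines. The receptor for glucagon itself, Gcgr, read 3.13, 2.79, 3.44 and 3.40 (3.19 ± 0.30) and was near background. Sctr (2.30 ± 0.22), the secretin receptor, and Lepr (2.39 ± 0.22), the leptin receptor, were the lowest of the 42.

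None of 22 adrenergic, muscarinic, dopamine and serotonin receptors was above the line on all 4 arrays. Drd2, a dopamine receptor that lowers cyclic AMP, came closest at 6.95, 7.16, 7.35 and 7.19 (7.16 ± 0.16) and missed it on array 1. Adra1b (5.52 ± 0.33), Chrm2 (5.27 ± 0.34) and Htr3a (5.22 ± 0.14) followed, and Htr2b (2.63 ± 0.21) and Chrm5 (2.15 ± 0.22) were lowest. Of 17 nutrient and metabolite receptors, 2 (11.8%, beside 23.3% of all genes) were above the line. Hcar1, the lactate receptor, read 9.29, 9.29, 9.33 and 9.27 (9.29 ± 0.03), and Gpr119, a receptor for lipid amides, read 7.56, 7.67, 7.31 and 7.46 (7.50 ± 0.15). Gpbar1 (5.34 ± 0.32), the bile acid receptor, and Tas1r1 (5.02 ± 0.09), a taste receptor subunit, lay between the lines. Casr (3.84 ± 0.18), the calcium-sensing receptor, Ffar1 (3.57 ± 0.25), a fatty acid receptor, Gpr84 (2.10 ± 0.35) and Gprc6a (2.00 ± 0.05) were near background.

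Glutamate and GABA receptors, a list that also holds glycine receptor genes, were above the line in 3 of 34 cases (8.82%, beside 23.3% of all genes). These were Gabbr1 (8.59 ± 0.10), Gria3 (7.55 ± 0.08) and Grik5 (7.51 ± 0.09). Gabbr2 (6.75 ± 0.19), the partner that Gabbr1 needs for a working GABA-B receptor, lay between the lines, as did Grik3 (6.87 ± 0.24), and Gabrg1 (2.17 ± 0.21) and Grm7 (1.98 ± 0.22) were lowest. Growth factor and guidance receptors had the largest share of the receptor groups above the line, 7 of 38 (18.4%), which was still below the 23.3% of all genes. Ntrk2, the receptor for brain-derived neurotrophic factor, read 9.77, 9.71, 9.82 and 9.71 (9.75 ± 0.05). Bmpr2 (9.28 ± 0.14), Kdr (8.87 ± 0.13), a VEGF receptor, Gfra1 (8.55 ± 0.05), the co-receptor for GDNF, and Kit (8.52 ± 0.12) were also above it, and Gfra3 (2.44 ± 0.38) and Bmpr1b (1.95 ± 0.16) were lowest. Among 33 purine, lipid and cytokine receptors, 5 (15.2%) were above the line. Il1r1, the interleukin-1 receptor, read 10.90, 10.70, 10.99 and 10.84 (10.86 ± 0.12, rank 55) and was the highest of all 186 receptor genes. Il6st, the shared signaling chain of the interleukin-6 family, read 10.29, 10.04, 10.48 and 10.04 (10.21 ± 0.21), while the interleukin-6 binding chain Il6ra read 4.97, 5.44, 4.80 and 4.95 (5.04 ± 0.28). Tnfrsf1a (8.25 ± 0.22), a TNF receptor, P2rx4 (7.68 ± 0.09), an ATP-gated channel, and Ifnar2 (7.44 ± 0.15) were above the line, and P2rx2 (2.50 ± 0.33) and P2ry13 (2.35 ± 0.12) at the bottom.

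Of 152 transporter genes, 48 (31.6%, beside 23.3% of all genes) were above the line and 44 (28.9%, beside 35.1%) near background, with a median of 5.67 beside 5.25 over all genes. Amino acid transporters had 19 of 44 above the line and a median of 6.57. After Slc38a5 came Slc38a2, at 11.20, 10.93, 11.01 and 10.98 (11.03 ± 0.12), another sodium-coupled transporter of neutral amino acids. The order of these 2 differed between arrays. Slc7a2 and Slc38a4 were next, then Slc3a2 at 10.31, 10.29, 10.24 and 10.24 (10.27 ± 0.03), the heavy chain shared by several exchangers. Its light chain partner Slc7a5, the large neutral amino acid exchanger, read 9.84, 10.21, 9.90 and 9.96 (9.98 ± 0.16), while another partner, Slc7a8, read 6.58, 6.71, 6.40 and 6.68 (6.59 ± 0.14). Slc38a10 (10.18 ± 0.09) and Slc38a1 (9.89 ± 0.12) of the same family as Slc38a5 were high as well. The glutamate transporter Slc1a3 (2.25 ± 0.24) and Slc6a14 (2.24 ± 0.06) were lowest.

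Of 17 glucose and sugar transporters, 4 (23.5%) were above the line, a share like the 23.3% of all genes. Slc2a5, the fructose transporter GLUT5, read 9.94, 10.17, 9.90 and 9.87 (9.97 ± 0.14) and led the group. Slc2a1, which encodes GLUT1, read 8.66, 9.11, 8.99 and 8.96 (8.93 ± 0.19), and Slc2a3, which encodes GLUT3, 8.51, 8.76, 8.62 and 8.59 (8.62 ± 0.10). Slc2a13 (7.70 ± 0.09), the proton-coupled inositol transporter, was the fourth. Slc2a2, which encodes GLUT2 of beta cells and hepatocytes, read 2.85, 2.77, 2.72 and 2.72 (2.77 ± 0.06) and was near background, as were Slc2a12 (2.55 ± 0.05) and Slc5a9 (2.23 ± 0.08).

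**Figure D4:**
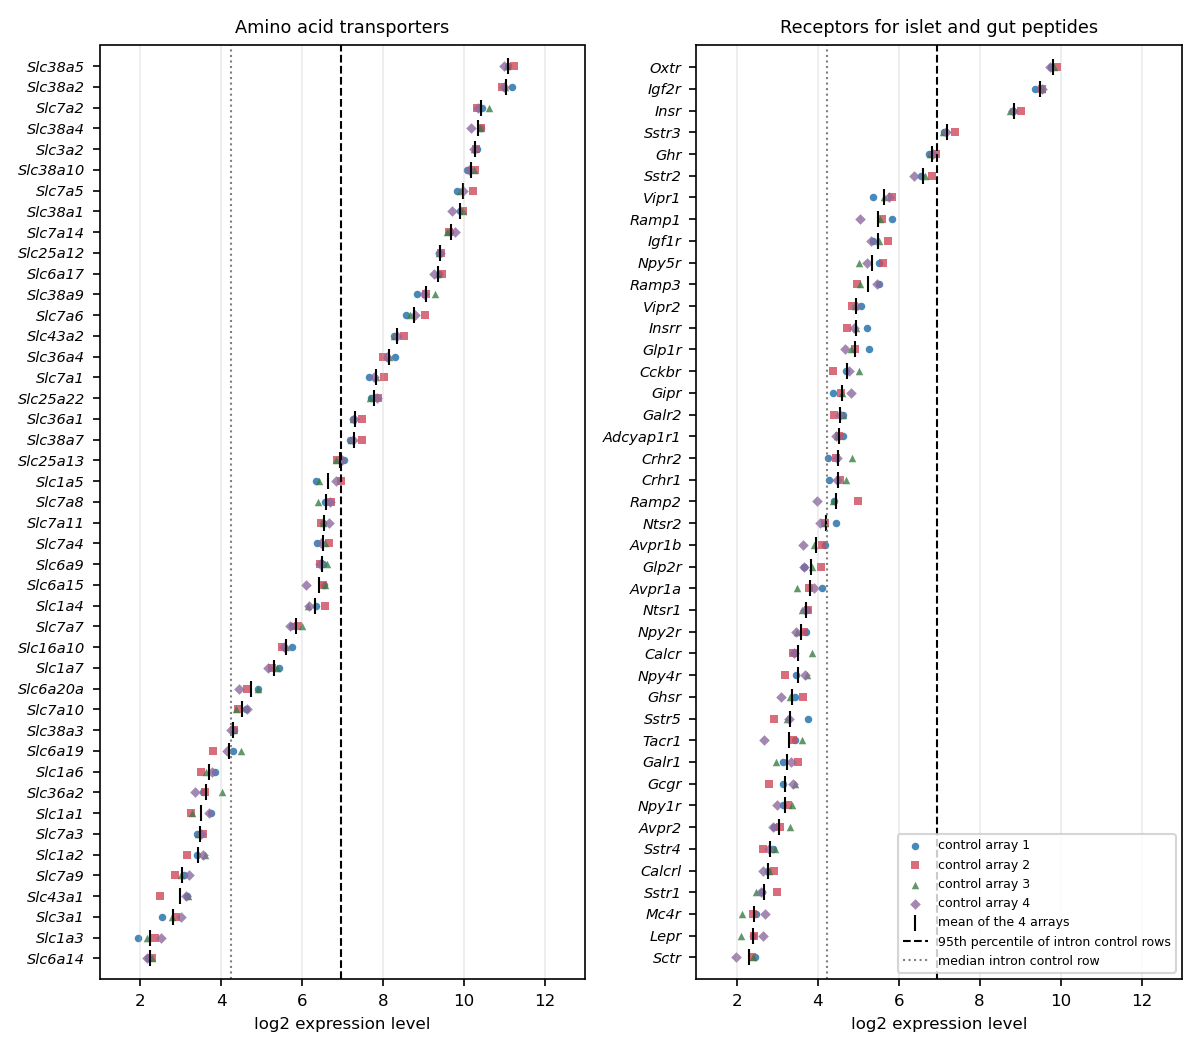
Log2 expression levels of 44 amino acid transporter genes (left) and of 42 genes listed as receptors for islet and gut peptides, accessory genes included (right). Symbols show control arrays 1 to 4 and bars their means. Lines are the 95th percentile of intron rows (dashed, 6.95) and the median intron row (dotted, 4.24). On the left 19 genes lie right of the dashed line on every array, on the right 4, led by Oxtr at 9.81.

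Mitochondrial, monocarboxylate and nucleotide carriers were above the line in 8 of 21 cases (38.1%, beside 23.3% of all genes). Slc25a5 (11.11 ± 0.08) and Slc25a4 (10.24 ± 0.13), the ADP/ATP carriers, Slc25a3 (9.64 ± 0.09), the phosphate carrier, and Slc25a11 (9.55 ± 0.17), the oxoglutarate carrier, were highest. The lactate and pyruvate transporter Slc16a1 stood at 9.29 ± 0.05, and Slc16a3, the related exporter, read 6.57, 7.73, 6.41 and 6.92 (6.91 ± 0.59), with array 2 high. Slc25a31 (2.05 ± 0.20) and Slc16a6 (1.90 ± 0.27) were lowest. Zinc and other metal transporters had 10 of 29 (34.5%, beside 23.3% of all genes) above the line. Behind Slc30a8 came Slc39a6 (9.43 ± 0.04), Slc39a9 (8.61 ± 0.10) and Slc30a7 (8.46 ± 0.15). Slc30a8 exceeded each of these 3 zinc transporters on every array. Of 17 vesicular and neurotransmitter transporters, Slc6a6 (8.81 ± 0.06), which carries taurine, and Slc6a8 (7.94 ± 0.23), which carries creatine, were above the line, and Slc6a2 (3.09 ± 0.35) and Slc17a6 (2.18 ± 0.16) were at the bottom. Pumps and cation-chloride cotransporters were above it in 5 of 24 cases (20.8%, near the 23.3% of all genes). Highest were Atp1b1 (10.75 ± 0.12), a subunit of the sodium pump, and Atp2a2 (10.41 ± 0.12), the calcium pump of the endoplasmic reticulum. Slc12a2 (8.51 ± 0.18), the chloride importer NKCC1, and Atp2b2 (8.48 ± 0.06) followed.

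The genes for electrical activity and fuel sensing included 18 of 56 (32.1%, beside 23.3% of all genes) above the line and 13 near background. Both subunits of the ATP-sensitive potassium channel were above it, Abcc8 at 8.22, 8.37, 8.47 and 8.42 (8.37 ± 0.11) and Kcnj11 at 7.23, 7.34, 7.15 and 7.10 (7.21 ± 0.11). Kcnh6 (9.47 ± 0.21) and Kcnh2 (8.11 ± 0.16), of the ERG family, were the other 2 of 18 potassium channel genes above it, and Kcnn3 (2.76 ± 0.07) and Kcnd2 (2.74 ± 0.13) were lowest. Of 19 calcium and sodium channel genes, 3 were above the line. These were Cacna1c, the pore of an L-type calcium channel, at 9.01, 8.91, 9.06 and 9.0 (8.99 ± 0.06), Scn8a (7.72 ± 0.10) and Cacna2d1 (7.46 ± 0.20). Cacna1d (5.38 ± 0.13), another L-type pore, and Cacna1a (5.87 ± 0.07), the P/Q-type pore, were between the lines.

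Among 19 enzymes of glucose and amino acid use, 11 (57.9%, beside 23.3% of all genes) were above the line. Got2 led, followed by Pfkp (9.45 ± 0.02), a phosphofructokinase, Hk1 (9.20 ± 0.13), the hexokinase that works at low glucose, and Ldha (9.13 ± 0.25), lactate dehydrogenase A. Hk2 stood at 5.97 ± 0.06. G6pc2, an islet glucose 6-phosphatase, read 8.71, 8.46, 8.13 and 8.18 (8.37 ± 0.27), and exceeded the line on every array. Gckr (3.05 ± 0.35) and Pck1 (2.60 ± 0.25), a gluconeogenic enzyme, were near background.

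Markers of other cell types were above the line in 11 of 80 cases (13.8%, beside 23.3% of all genes). They were near background in 41 (51.2%, beside 35.1%), with a median of 3.76. The mean level of the whole list ranged from 4.37 to 4.49 over the 4 arrays. The share near background differed between lists, from 3 of 10 neuron and glia genes and 5 of 12 beta cell genes to 6 of 11 acinar genes and 10 of 10 immune genes. The immune markers ran from Ptprc, the pan-leukocyte gene, at 3.65 ± 0.32, to Tyrobp at 2.46 ± 0.32, and their mean ranged from 2.84 to 3.09. Of 11 acinar genes 0 were above the line, headed by Cela1 (5.33 ± 0.29), Cela2a (4.61 ± 0.31) and Cel (4.46 ± 0.32). The beta cell list had 1 of 12 above the line, G6pc2, and a mean of 4.46 to 4.64. The delta, PP and epsilon cell list had 2 of 9, Rbp4 (8.31 ± 0.17), which carries retinol, and Sstr3. The duct cell list had 1 of 6, Sox9, followed by Krt7 (5.83 ± 0.16) and Tff2 (3.92 ± 0.36) between the lines. The other 3 were near background, among them Krt19 (2.76 ± 0.11), the keratin that defines duct cells. In the fibroblast list 2 of 11 were above the line, Fn1 (9.82 ± 0.04), which encodes fibronectin, and Vim (7.40 ± 0.19), an intermediate filament of many cultured cells, while the collagen genes Col1a1 (5.82 ± 0.17) and Col3a1 (2.92 ± 0.21) were not. In the endothelial list 1 of 11 was above the line, Kdr, and 5 were near background. Esam (6.05 ± 0.25) and Tie1 (4.82 ± 0.25) came next and lay between the lines. Pecam1 (4.06 ± 0.20) and Cdh5 (2.63 ± 0.41), which define these cells, were low. Krt19, Col3a1, Pecam1 and Cdh5 were chosen after their values were seen. Of 10 neuron and glia genes 4 were above the line, Syp, Elavl3 (7.98 ± 0.09), Tubb3 (7.84 ± 0.12) and Map2 (7.77 ± 0.30), a set that endocrine cells share in part. In bulk RNA of 1 line, a signal shared by all cells and a signal from a part of them cannot be told apart.

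**Figure D5:**
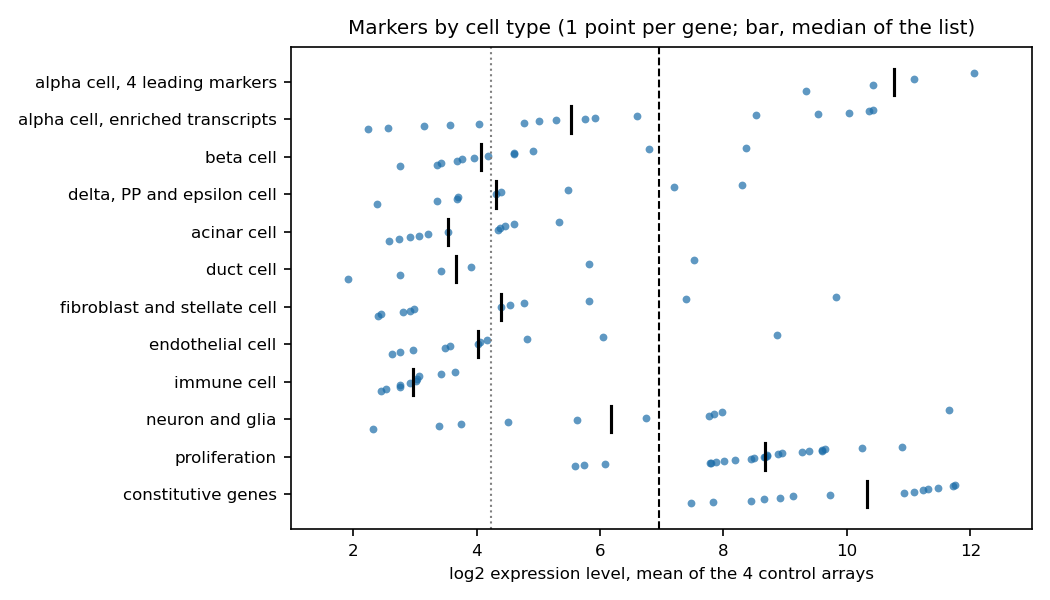
Mean log2 expression level over the 4 control arrays of each gene (points) in 10 cell type marker lists and in proliferation and constitutive lists, with the median of each list (bar), the 95th percentile of intron rows (dashed, 6.95) and the median intron row (dotted, 4.24). All 14 constitutive genes lie right of the dashed line and all 10 immune markers left of the dotted line.

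Genes of the cell cycle were high. Of 23 genes of the proliferation list, which also holds inhibitors of the cycle, 20 (87.0%, beside 23.3% of all genes) were above the line. Near background were 0, beside 35.1% of all genes. Mki67, a marker of cycling cells, read 10.88, 10.77, 10.94 and 10.96 (10.89 ± 0.09, rank 51), Pcna, the replication clamp, stood at 10.25 ± 0.08, and Plk1, a mitotic kinase, at 9.65 ± 0.18. The inhibitors Cdkn1a (9.60 ± 0.15) and Cdkn1b (9.59 ± 0.17) were above the line as well, and Rb1 (6.08 ± 0.13), Cdkn1c (5.74 ± 0.25) and Ccnd2 (5.59 ± 0.05) were the members between. All 14 constitutive genes were above the line, from Gapdh down to Gusb (7.47 ± 0.12).

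The 4 arrays agreed most closely for genes with high signal. The median SD was 0.12 over the 4550 genes above the line, 0.18 between the lines and 0.20 near background. Across the line 1103 genes (5.66%) fell on different sides on different arrays. Of all genes, 1043 (5.35%) had 1 array apart from the other 3 by more than the usual limit for 4 values. This is close to the share that chance gives at that limit. The array apart was most often array 2 (339 genes) and least often array 3 (213 genes). Among genes above the line, the most variable was Cald1, which encodes an actin-binding protein, at 8.11, 7.72, 8.80 and 7.97 (SD 0.46), with array 3 high. Naglu, a lysosomal enzyme, read 7.75, 8.63, 7.97 and 7.89 (SD 0.39), with array 2 high, and Cops9, a signalosome subunit, read 9.33, 9.61, 8.74 and 9.33 (SD 0.37), with array 3 low.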

How the data were processed

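Total RNA of 4 control samples was hybridised to Clariom S arrays. Each array has 1 deposited column of log2 values. RMA, oligo and limma are named in the submitters' processing notes, with no version or role. RMA in its usual form scales all arrays to 1 distribution, so a global change in RNA amount would be removed. No further scaling was applied to the deposited values. Work was done in Python 3.11.15 with pandas 2.3.3, numpy 2.4.6 and matplotlib 3.10.9. Of 29129 rows, 22142 were transcript clusters, 19527 of them with 1 symbol, 0 with several and 2615 with none. The Entrez identifiers of all 19527 were found in the mouse RefSeq gene table. They stood for 19494 genes, and for the 33 with over 1 row the row with the highest mean was used. No probe set coordinates are printed, as the labels name no genome build.

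Control rows marked pos and neg were taken as the exon and intron rows of this array family. The design has 1 group and no second condition here, so no test was run. Lines were the 95th percentile of intron rows, the median exon row and, chosen after seeing the values, the median intron row for near background. Alternatives were the 90th and 99th percentiles, receptor genes as the line, the 75th percentile of exon rows, the mean rule over arrays (5059 genes above), other scalings, the lowest row of a gene (4548 above) and leaving out each array. The steps were tested on simulated data. The members and the 40 gene lists of 795 genes were chosen with earlier results of these data known, and 709 of these genes were measured while 86 had no match and were not analysed here. One receptor gene and 1 carrier gene were taken out of unfitting lists afterwards. The naming rule took the 4 markers and the hormones Ins2, Sst, Ppy and Ghrl, the 15 highest genes, the 4 highest and 2 lowest of each list of hormones, granule, factor, receptor, transporter and excitability genes, and the 3 highest of each marker, proliferation or constitutive list. Others, among them Gcgr, Ttr, Pdx1, Slc2a2, Pax6, Kit and the most variable genes, were chosen after their values were seen.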

Additional observations from a re-analysis of the deposited data

Results flagged for a closer look

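Of the 267 genes named, 17 had 1 array apart from the other 3 by more than the usual limit for 4 values, and chance gives about 1 in 20. Among genes above the line, Chga was high on array 3 (10.8), Slc38a4 low on array 4 (10.2), Plk1 low on array 1 (9.39) and Igf2r low on array 1 (9.37). Between the lines, Irx1 was low on array 3 (6.36), Hamp high on array 4 (6.0), Ccnd2 high on array 3 (5.67), Pecam1 high on array 4 (4.36) and Sst low on array 4 (5.0). Near background, where small shifts carry little information, Lyz2 (2.75), Sctr (1.97), Chrm5 (1.82) and Pth (1.94) were low on array 4, Hnf4g (2.39) and Gabrg1 (2.48) high on array 4, Npvf (2.60) high on array 2 and Grm7 (2.30) high on array 1.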

How the results depend on the processing

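The counts depend mainly on where the line is set, and class counts are given in the order hormones, granule and processing, transcription factors, receptors, transporters, excitability and fuel sensing, other cell types, and culture and cycle. At the 99th percentile of the intron rows (8.89), 712 genes in all and 51 of the 188 genes named by the rule (94 at the 95th) were above the line, and by class 1, 7, 4, 7, 22, 4, 2 and 15, with 8 of the alpha cell markers. At the 90th percentile (6.36) the receptor count rose to 36. With the 95th percentile of olfactory and vomeronasal receptor genes as the line (3.69), 12682 genes were above it, among them 17 alpha cell markers, 42 hormone, 62 transcription factor, 105 receptor, 109 transporter and 41 excitability genes and 37 markers of other cell types. Above the 75th percentile of exon rows lay 1267 genes. Means of the control rows in place of medians gave a contrast of 2.76. Leaving out 1 array gave 4572 to 4757 genes above the line, 3960 to 4055 above the median exon row, 6908 to 7005 near background and a contrast of 2.95 to 2.98. Subtracting array medians or quantile normalization of the 4 arrays keeps the order within an array, so it could not change these counts and says nothing about their stability. Leaving out 1 array moved the mean of a named gene by at most 0.32 (without replicate 2). The ranks of genes do not depend on where a line is set or on array medians. Under the settings that could change ranks (leaving out an array, quantile normalization, choice of row), Gcg stayed at rank 1. Slc38a5 then stood at 32 to 39, Slc7a2 at 97 to 108 and Pou3f4 at 513 to 574. No paired analysis was possible because the results describe 1 group and come from no test. The number of arrays limits the precision, low signals are compressed towards background, and signals of different probe sets cannot be read as ratios of transcripts.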

Other observations

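Several genes outside the lists stood among the highest of control alphaTC1.9 cells. They were chosen after their values were seen. Tcf4, a basic helix-loop-helix factor, read 11.25, 11.34, 11.31 and 11.28 (11.29 ± 0.04, SD, n = 4, rank 16), more than any factor of the lists. Ppargc1a, a coactivator of mitochondrial genes, stood at 10.78 ± 0.10 (rank 63), Foxp1, a forkhead factor, at 10.44 ± 0.14 (rank 98) and Hif1a, the oxygen-regulated factor, at 10.34 ± 0.09 (rank 113). Hspa5, the BiP chaperone of the endoplasmic reticulum, read 11.10, 10.87, 10.99 and 10.88 (10.96 ± 0.11), and Gnas, which encodes the stimulatory G protein alpha subunit, 10.81, 10.83, 10.82 and 10.77 (10.81 ± 0.03). Rab7 (11.22 ± 0.09), of late endosomes, Dusp1 (10.94 ± 0.07), a phosphatase of MAP kinases, and the adhesion molecule Ncam1 (10.29 ± 0.08) were high on all 4 arrays. Kcnip3 (10.22 ± 0.16), a calcium-binding protein of potassium channels, and Gpr19 (9.23 ± 0.10), an orphan receptor, led the families that share their name.

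Families defined by name were set beside the 23.3% of all 19494 genes above the line. Of 58 cytosolic ribosomal protein genes 55 (94.8%) were above it, of 39 proteasome subunits 29 (74.4%) and of 56 Rab GTPases 22 (39.3%). The 91 of 361 solute carriers (25.2%) and 82 of 358 zinc finger Zfp genes (22.9%) were near the share of all genes. The share was 5 of 89 for potassium channels, 5 of 92 for Gpr and Adgr genes, 6 of 39 for forkhead genes, 2 of 27 for Irx, Pax and Nkx genes and 1 of 20 for Sox genes. Of 35 Hox genes 0 were above it and 22 near background, and the highest was Hoxb2 at 5.17 ± 0.31. Of 1091 olfactory receptor genes 0 were above the line and 97.0% near background, and of 319 vomeronasal receptor genes 0 were above it, although Vmn2r29 reached 6.82 ± 0.08. None of 38 taste receptor, 50 keratin-associated protein or 39 beta-defensin genes was above the line, and Krtap5-1 came nearest at 6.89 ± 0.37.

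Of the 2615 transcript clusters without a gene symbol, 476 were above the line on all 4 arrays, beside 4550 of 19494 named genes. Antigenomic control rows, whose probes match no mouse sequence, read 1.63 to 2.44 for probes with 3 to 14 G or C bases and rose to 6.42 at 23. The part of probe base composition in the order of genes was not tested. The spikes added at known increasing amounts were ordered bioB (8.26), bioC (9.16), bioD (10.5) and cre (12.3) on every array. The spikes lys (4.61), phe (5.07), thr (5.95) and dap (7.48) also kept this order on every array. Their SD between arrays ran from 0.26 (lys) to 0.43 (dap), beside 0.15 (cre) to 0.28 (bioC). Array 3 read highest for every spike.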
